A study of Mus musculus with 8 samples.

Results

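The genes described here encode the machinery that holds RNA polymerase II near the promoter and lets it go. They are 9 of the 16279 genes in the deposited input RNA table, taken by name: Nelfe, Nelfa, Nelfb and Nelfcd, the subunits of the negative elongation factor (NELF); Cdk9, Ccnt1 and Ccnt2, which make up the positive elongation factor P-TEFb; and Hexim1 and Larp7, proteins of the 7SK complex that keeps P-TEFb inactive. The set was chosen by role and by the input fold change of Nelfe, which was already known, so the input values of these genes are given as a description and not as tests of the set.

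N2a cells, derived from a mouse neuroblastoma, had been transfected either with siRNA (small interfering RNA) targeting Emg1, the gene of an 18S ribosomal RNA methyltransferase, or with a control siRNA, and were harvested at 48 h. Polyadenylated RNA was sequenced with and without immunoprecipitation (IP) by an antibody against N6-methyladenosine (m6A), which gave 4 groups with 2 libraries in each: m6A IP after Emg1 knockdown, m6A IP after control, input after Emg1 knockdown and input after control. Whether the libraries within a group stem from different cultures is not in the labels, and the authors' p-values may therefore measure technical spread only. The tables hold no value per library: the depth is unknown, and the error of a fold change is the standard error (SE) of the authors' fit.

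Shortly after it starts a transcript, RNA polymerase II is held in place by NELF together with a second factor, DSIF. The kinase Cdk9, bound to a cyclin T, phosphorylates NELF, DSIF and the polymerase, after which NELF leaves and elongation proceeds. A pool of P-TEFb is kept inactive on the 7SK RNA by Hexim1, and Larp7 stabilises that RNA.

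Emg1 itself stood at 30.2% of control in knockdown cells, or -1.73 ± 0.11 (SE) as a log2 fold change of the authors' deposited table (adjusted p = 3.37e-54). The file does not name the direction of its fold changes, and they are read as knockdown over control because Emg1 is negative. Of 14 neuroblastoma markers, 10 had a mean normalized count of at least 100, the highest being 21840 for Tubb3, a neuronal tubulin; Nefm, a neurofilament gene, was near the floor at 1.32, and Nefl was not matched. Of 5 macrophage and leukocyte markers, 2 were matched, with a highest mean of 15.4. Of 5 fibroblast and 5 endothelial and epithelial markers, 1 each reached 100, Pdgfra at 1357 and Pecam1 at 406.6.

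Within the set, 1 gene fell by a large amount and the others moved little. Nelfe fell and Ccnt1 rose at the authors' adjusted p under 0.05, and 7 of the 9 genes were not called. Over all 12807 genes with an adjusted p, 32.6% were called, 15.5% as fallen and 17.1% as risen, so a share of 22.2% among the 9 genes lies below the background and says nothing about the set as a whole. The median log2 fold change over the 9 genes was -0.064, against -0.0023 over all genes with an adjusted p. The median size of change without regard to sign was 0.13 in the set and 0.21 over all these genes. Apart from Nelfe, the set spanned -0.16 to 0.23 on the log2 scale, and 1.60 log2 units separated Nelfe from the next lowest gene.

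**Figure D1:**
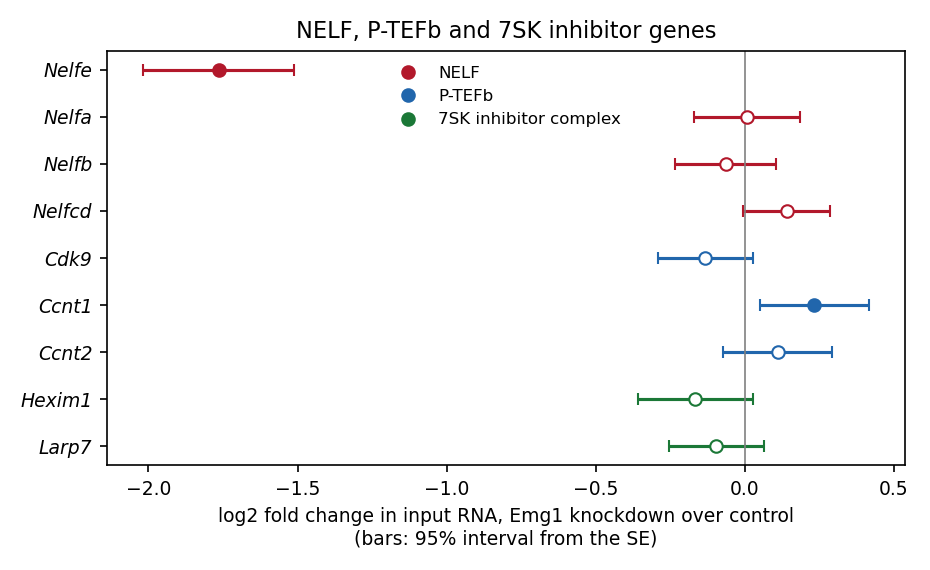
Log2 fold change in input RNA (x axis, Emg1 knockdown over control) for each of the 9 genes, with 95% intervals from the deposited SE. Filled points had an adjusted p under 0.05. Nelfe lies at -1.76, and the other 8 genes lie between -0.16 and 0.23.

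Nelfe encodes NELF-E, the subunit that carries an RNA recognition motif and a stretch of alternating arginine and aspartate. It had a log2 fold change of -1.76 ± 0.13 (SE) in the authors' deposited table, with an adjusted p of 5.83e-40. Its RNA thus stood at 29.4% of control in knockdown cells (95% interval 24.7 to 35.1). If the deposited mean of 974.6 normalized counts covers the 2 input libraries of each group equally, it corresponds to about 443 normalized counts in knockdown cells and 1506 in control cells. Such group means are derived from the fit and are no measured libraries.

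Falls of this size were uncommon. Because the set was chosen by this fold change, the ranks given here describe Nelfe and are not tests. Only 1.44% of genes with an adjusted p were both called and at least 2-fold lower, and 17 of the 12807 had a lower fold change than Nelfe. Among the 11134 genes with a mean of at least 100, Nelfe had rank 5 from the bottom. Among the 1277 genes with a mean within a factor of 1.2 of its own, 0 had a lower fold change. Its SE was larger than that of 94.3% of the same genes, whose median SE was 0.12. The genes next to it in fold change, with means of at least 100, were Adm, Fam101a and Selenbp2 on the lower side and Eif4ebp1, Ten1 and Emg1 itself on the upper side. Emg1 and Nelfe were reduced to nearly the same percent of control in knockdown cells, with 95% intervals of 26.1 to 35.0 for Emg1 and 24.7 to 35.1 for Nelfe.

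**Figure D2:**
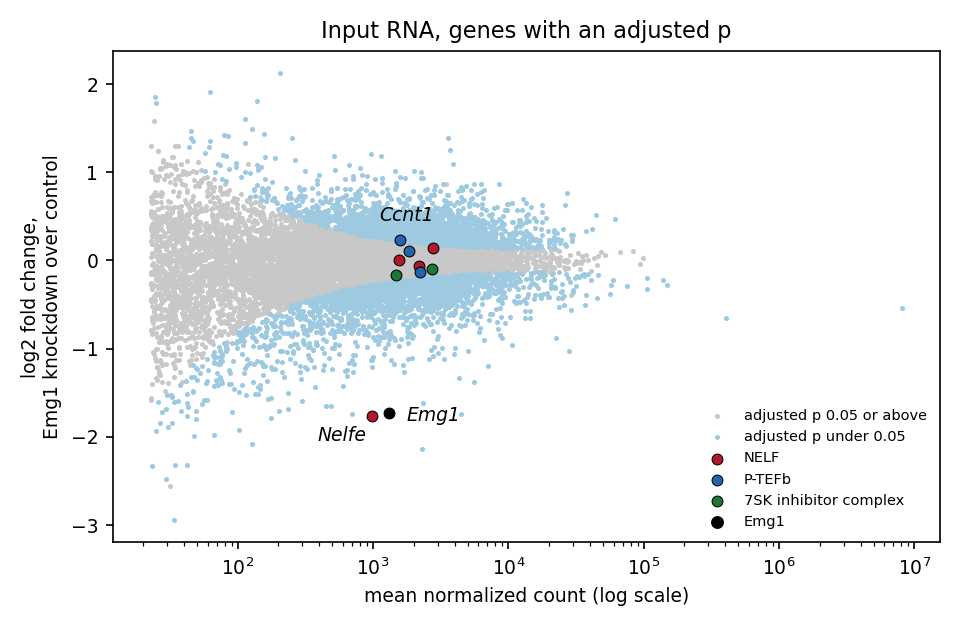
Log2 fold change in input RNA (y axis) against the mean normalized count (x axis, log scale) for the 12807 genes with an adjusted p. Large points mark the 9 genes and Emg1: Nelfe and Emg1 lie together at the lower edge, at -1.76 and -1.73, and the other 8 genes lie near 0.

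The genes beside Nelfe did not share its fall. On mm10 chromosome 17, Nelfe spans 34850391 to 34856372 in the RefSeq annotation. Skiv2l, which encodes a helicase that works with the RNA exosome, lies 186 bases away and rose by 0.25 ± 0.09 (log2, SE) in the authors' deposited table (adjusted p = 0.0181). Cfb, the complement factor B gene, is separated from Nelfe by 1 base on the other side. It had a mean of only 55.5 normalized counts and a log2 fold change of -0.22 ± 0.44 in the authors' deposited table (adjusted p = 0.757).

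The other 3 NELF subunit genes were not called. Nelfa, whose product binds the polymerase, had a log2 fold change of 0.0080 ± 0.091 (SE) in the authors' deposited table (adjusted p = 0.959). Its 95% interval was -0.17 to 0.19, or 88.8% to 114% of control. Nelfb, also known as Cobra1 for the binding of its product to BRCA1, stood at -0.064 ± 0.087 in the authors' deposited table (adjusted p = 0.627), with an interval of -0.23 to 0.11. Nelfcd, which gives rise to both NELF-C and NELF-D by alternative translation starts, stood at 0.14 ± 0.07 in the authors' deposited table (adjusted p = 0.135), with an interval of -0.0042 to 0.29.

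In group means derived as for Nelfe, Nelfa had about 1568 normalized counts in knockdown cells and 1559 in control cells. Nelfb had 2150 in knockdown cells and 2247 in control cells, and Nelfcd had 2911 in knockdown cells and 2638 in control cells. The NELF complex therefore showed 1 subunit gene far below its control level and 3 whose intervals include no change. Differences between the subunits were not tested, because the same libraries underlie all of them and their covariance was not analysed here.

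Among the P-TEFb genes, Ccnt1 was the only one called. It encodes cyclin T1, the main cyclin partner of Cdk9, and rose by 0.23 ± 0.09 (log2, SE) in the authors' deposited table (adjusted p = 0.0385). This corresponds to 118% of control (95% interval 104 to 133), or about 1698 normalized counts in knockdown cells and 1443 in control cells. The call was near the threshold and was lost at an adjusted p under 0.01. With the median of other elongation genes set to 0, the value was 0.11, close to its SE of 0.09. A long noncoding RNA gene, 9330020H09Rik, overlaps the Ccnt1 span by 413 bases on chromosome 15 and stood at 0.45 ± 0.28 in the authors' deposited table (adjusted p = 0.218). No source used here says whether the counting was strand-specific, and reads may have been shared there.

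Ccnt2, which encodes the alternative partner cyclin T2, stood at 0.11 ± 0.09 in the authors' deposited table (adjusted p = 0.394). Its derived means were 1902 normalized counts in knockdown cells and 1761 in control cells. Cdk9, the kinase itself, had the opposite sign at -0.13 ± 0.08 in the authors' deposited table (adjusted p = 0.215), with derived means of 2103 in knockdown cells and 2305 in control cells. Neither was called, and their 95% intervals were -0.072 to 0.29 for Ccnt2 and -0.29 to 0.028 for Cdk9.

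The genes of the P-TEFb inhibitor complex had slightly negative values and were not called. Hexim1, whose product binds and inhibits Cdk9 in the presence of 7SK RNA, had a log2 fold change of -0.16 ± 0.10 (SE) in the authors' deposited table (adjusted p = 0.194). Its derived means were 1382 normalized counts in knockdown cells and 1549 in control cells. The lower bound of its 95% interval, -0.36 or 78.1% of control, was the furthest from 0 on the log2 scale among the 7 genes that were not called. Larp7 stood at -0.095 ± 0.081 in the authors' deposited table (adjusted p = 0.4), with derived means of 2655 in knockdown cells and 2835 in control cells.

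Differential m6A peaks on Larp7 and on Nelfcd both reach the first 50 transcribed bases. A RefSeq promoter window was matched for 7 of the 9 genes, not for Nelfcd and Nelfe, and that of Larp7 is shown because a peak lies in it. The window covers 250 bases before the annotated start and 50 after it, from RefSeq (GRCm38.p6, the assembly of mm10), minus strand, chr3:127553300-127553599, with the 20 bases under the peak in capitals.
Larp7: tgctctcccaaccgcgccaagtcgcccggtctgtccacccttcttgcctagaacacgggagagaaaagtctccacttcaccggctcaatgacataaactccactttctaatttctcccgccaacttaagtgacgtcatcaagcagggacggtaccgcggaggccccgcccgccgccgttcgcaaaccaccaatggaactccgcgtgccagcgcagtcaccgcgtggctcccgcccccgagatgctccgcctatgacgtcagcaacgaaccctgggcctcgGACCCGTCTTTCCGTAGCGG
The motif GGAC, the core of the favoured sequence around m6A, begins at base 30 of the transcribed part and runs into the capitals. The blocks of this peak cover 359 bases, of which only these 20 lie in the window. The rest were not searched, and whether this copy is methylated was not tested. A copy on the transcribed strand within the first 50 transcribed bases is found in 18.9% of the 32851 RefSeq promoter windows, and in 1 of the 7 windows matched for this gene set. The same window holds TGACGTCA, a palindrome known as the cAMP response element, at base 3 and at 121 bases before the start, with no overlap with GGAC. The annotated span of the neighbouring gene Zgrf1, chr3:127553396-127618023, also reaches into this window. It holds the TGACGTCA copy 121 bases before the Larp7 start, so the window is not that of Larp7 alone. The TGACGTCA motif was searched after the sequence had been seen. It occurs in 1.79% of all windows and at least 2 times in 0.0396%, and in 0 of the windows of Nelfa, Nelfb, Cdk9, Ccnt1, Ccnt2 and Hexim1.

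The GC content of the 7 promoter windows was lowest in Nelfb at 53.0%, next lowest in Hexim1 at 61.0% and highest in Cdk9 at 78.3%. The median over all windows was 52.7%, close to the value of Nelfb. GGAC was present on either strand in 6 of the 7, close to the 87.7% of all windows that hold it.

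The differential m6A peak list held 3 peaks on 2 of the 9 genes, Nelfcd and Larp7. Among all genes with an adjusted p in input, 14.8% carried at least 1 differential peak, against 22.2% of the set, and 1.42% carried 2 or more, as Larp7 did. All 3 peaks had a negative change, and 7.89% of the same genes carried at least 1 negative-change peak. The direction of this change is not stated in the file, and a negative value can mean either a gain or a loss of methylation after knockdown. Only differential peaks were analysed here, and nothing can be said of methylation on the 7 genes without one, Nelfe among them.

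The Nelfcd peak had a change of -0.91 (log2, sign as deposited) in the authors' deposited table, with a false discovery rate of 1.38e-06. It starts at the first annotated base of the gene and has 2 blocks, chr2:174415804-174415956 and chr2:174420027-174420144, which cover 271 bases. The far block ends 4340 bases from the gene start, at 37.1% of the span. Its fold enrichment of IP over input was 2.92, the authors' value for that peak. Of all negative-change peaks, 35.1% had a more negative change.

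Both Larp7 peaks lay in the 5′ portion and the middle of the gene. The first has 3 blocks that cover 359 bases, begins 30 bases from the gene start and reaches 37.2% of the span (chr3:127547154-127553319). Its change was -0.45 in the authors' deposited table, with a false discovery rate of 0.00178 and a fold enrichment of 2.55. The second has 4 blocks that cover 539 bases, between 41.2% and 54.6% of the span (chr3:127544262-127546495). Its change was -0.69 in the authors' deposited table, with a false discovery rate of 2e-07 and a fold enrichment of 1.78. This span also contains the 5 microRNA genes Mir302a, Mir302b, Mir302c, Mir302d and Mir367, known from pluripotent cells, between 127545228 and 127545807. These lie in a gap between blocks, and 0 of the 5 overlapped a block. A long noncoding RNA gene inside Larp7, Gm51018, was not matched in the input RNA and spans 127545089 to 127546903. It covers the blocks of the second peak between 127545826 and 127546495. Whether that peak lies on RNA of Larp7 or of Gm51018 was not tested.

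**Figure D3:**
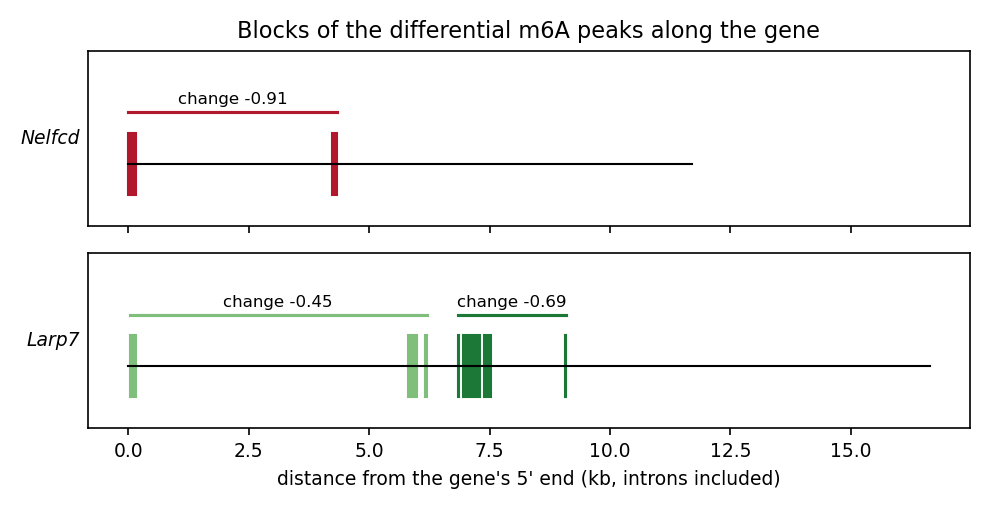
Blocks of the differential m6A peaks (coloured boxes) along Nelfcd and Larp7, as distance from the 5′ end of the gene in kb with introns included; the black line is the gene span and each label is the log2 change with the sign as deposited. The Nelfcd peak and the first Larp7 peak begin at or within 30 bases of the start, and the second Larp7 peak starts 6854 bases in.

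All 3 peaks were weakly enriched. Their fold enrichments of 1.78 to 2.92 lay below the median of 5.525 over the 2114 differential peaks and below the median of 4.11 over the 1123 negative-change peaks. The Nelfcd peak exceeded 28.3% of all differential peaks in enrichment, the first Larp7 peak 24.0% and the second Larp7 peak 11.6%. The median change of negative-change peaks was -0.72. Of these, 35.1% had a more negative change than the Nelfcd peak and 52.7% than the second Larp7 peak. The first Larp7 peak had a small change, with 80.4% more negative. Each of the 3 peaks had more than 1 block, as did 62.4% of negative-change peaks.

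**Figure D4:**
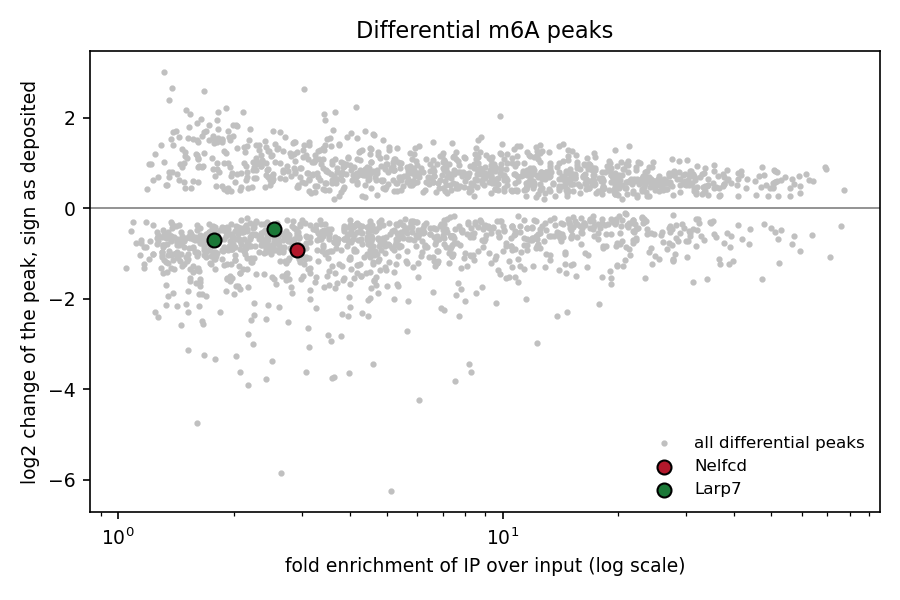
Log2 change of each of the 2114 differential peaks (y axis, sign as deposited) against fold enrichment of IP over input (x axis, log scale). The 3 peaks on Nelfcd and Larp7 lie at enrichments of 1.78 to 2.92 and changes of -0.91 to -0.45.

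The input values of the 2 genes with peaks did not share a sign. Nelfcd stood at 0.14 and Larp7 at -0.095 (log2) in the authors' deposited table, and neither was called. Nelfe and Ccnt1, the genes called in input, had no differential peak. Of the 8 measured genes that overlap one of these 9 or lie within 1000 bases, 4 rose and 0 fell. Over all genes with an adjusted p, 32.6% were called, 17.1% as risen. With so few neighbours the difference was not tested. Nelfcd and Ctsz, a cathepsin gene, overlap by 12 bases at their ends, and Ctsz rose by 0.24 ± 0.07 in the authors' deposited table (adjusted p = 0.00183). Zgrf1 lies 46 bases from Larp7 and rose by 0.42 ± 0.09 in the authors' deposited table (adjusted p = 3.12e-05). Nsd2, a histone methyltransferase gene listed under the older name Whsc1, overlaps the Nelfa span by 51 bases and rose by 0.23 ± 0.06 in the authors' deposited table (adjusted p = 0.000231). Beside Ccnt2, the noncoding gene 2900009J06Rik had a mean of 12.7 normalized counts and no adjusted p, and the same held for Mir7024, which lies within the Nelfa span, at a mean of 2.40.

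The rest of the elongation machinery went mostly upward where it was called. In 7 lists of other pausing, polymerase and elongation genes, assembled by role, 79 of 84 genes had an adjusted p. Of these, 26 rose, 4 fell and 49 were not called. The share that rose was 32.9%, against 17.1% of all genes, and the share that fell was 5.06%, against 15.5%. The median log2 fold change was 0.13. Most of these changes were small: among called genes with a change of at least 1.5-fold, 2 rose and 2 fell. The shares were not matched for mean count, and the lists were assembled with earlier results of these data known. Their difference from all genes therefore cannot be read as a feature of the lists. Of the 9 genes described above, 11.1% rose and 11.1% fell.

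Among further regulators of 7SK and P-TEFb, 4 of 9 rose and 0 fell. Brd2, a bromodomain protein that binds acetylated histones, rose by 0.42 ± 0.05 in the authors' deposited table. Mepce, the enzyme that caps 7SK RNA and binds it together with Larp7, rose by 0.46 ± 0.10 in the authors' deposited table (adjusted p = 2.35e-05). Hexim2, the paralog of Hexim1, stood at -0.099 ± 0.220 in the authors' deposited table (adjusted p = 0.781). It was named after its values were seen.

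Of 15 DSIF and RNA polymerase II subunit genes, 4 rose and 2 fell. Supt5, the large DSIF subunit that works with NELF in pausing, rose by 0.44 ± 0.06 in the authors' deposited table (adjusted p = 2.43e-12). Polr2a, the largest subunit of the polymerase, rose by 0.64 ± 0.05 in the authors' deposited table. Polr2m, which encodes the polymerase-associated protein Gdown1, fell by 0.45 ± 0.07 in the authors' deposited table. Polr2k fell by 1.42 ± 0.29 in the authors' deposited table and had a low mean of 146.8 normalized counts. It was named after its values were seen, and its span overlaps that of Spag1.

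The PAF complex and elongation factor list had the largest share of risen genes among the 7 lists, 9 of 15, with 0 fallen. Supt6, a histone chaperone that travels with the polymerase, rose by 0.53 ± 0.07 in the authors' deposited table. Chd1, a chromatin remodeler, rose by 0.41 ± 0.07 and Ctr9, a PAF subunit, by 0.39 ± 0.08 in the authors' deposited table. In the super elongation complex, which contains P-TEFb, 1 of 6 genes with an adjusted p rose: the scaffold gene Aff4, by 0.46 ± 0.05 in the authors' deposited table.

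Integrator, which ends transcription at paused polymerases, had 4 risen and 0 fallen genes of 14. Ints1 rose by 0.84 ± 0.08, Ints4 by 0.43 ± 0.09 and Ints7 by 0.23 ± 0.06 in the authors' deposited table. Of 9 other transcription kinases and cyclins, 2 rose and 1 fell. Cdk8, of the Mediator kinase module, rose by 0.47 ± 0.08 and Cdk12, a kinase of the polymerase tail, by 0.36 ± 0.08, while the related Cdk13 fell by 0.28 ± 0.09 in the authors' deposited table. Of 11 cap-binding and termination genes, 2 rose, Rprd2 by 0.48 ± 0.09 and Pcf11 by 0.35 ± 0.09 in the authors' deposited table. Rprd1b, which binds the polymerase tail, fell by 0.83 ± 0.10 in the authors' deposited table.

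**Figure D5:**
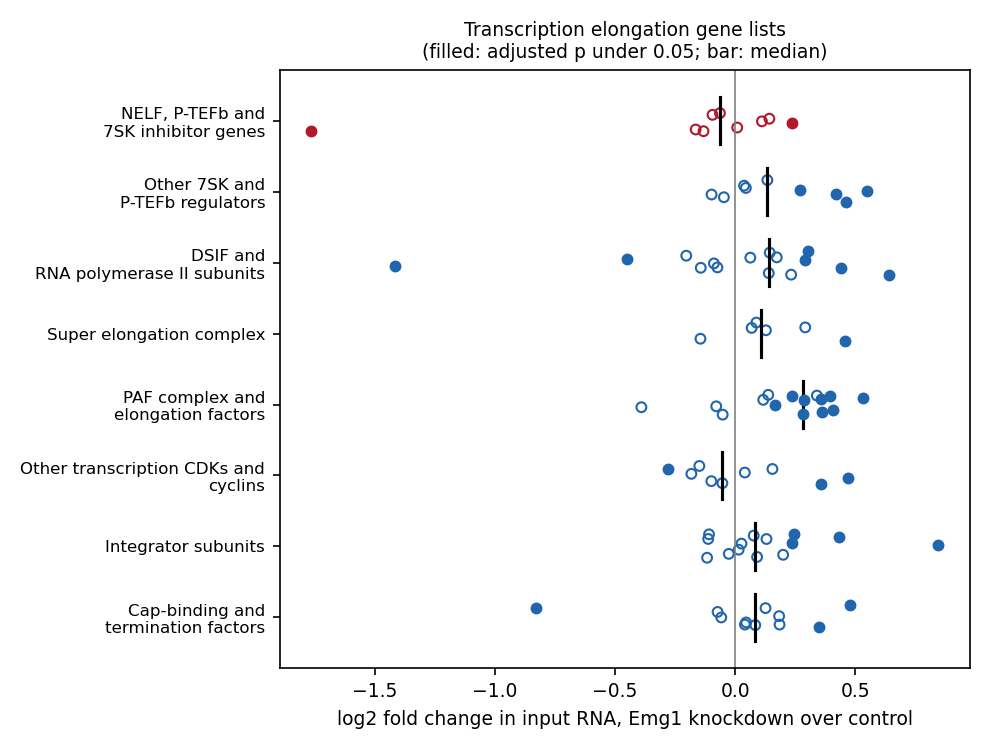
Log2 fold change in input RNA (x axis, Emg1 knockdown over control) of each gene with an adjusted p, by list; filled points had an adjusted p under 0.05 and black bars are medians. Nelfe, at -1.76, is the lowest point plotted, followed by Polr2k at -1.42.

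Differential m6A peaks were carried by 23 of the 82 genes of these lists with a row in the table, 28.0%, against 14.8% of all genes with an adjusted p. Of the 82 genes, 79 had an adjusted p. The shares were not matched for mean count, so the difference cannot be read as a feature of the lists. Of the 23, 13 had peaks of negative change only, 8 of positive change only and 2 of both signs. Among the genes named above, the authors' deposited table gave log2 changes, with the sign as deposited, of -2.02 for Polr2k, -1.0 for Supt5, -0.56 for Hexim2, -0.53 for Mepce, -0.44 for Aff4 and -0.34 for Chd1. Positive changes in the authors' deposited table were 0.94 for Rprd1b, 0.63 for Cdk12 and 0.62 for Cdk13. Polr2a had 1 peak of each sign, at -0.79 and 0.99 in the authors' deposited table.

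Of the genes named from these lists, Brd2, Supt6, Ints7 and Rprd1b also have spans that overlap another measured gene of at least 100 mean counts, so their counts are uncertain where reads were shared. Outside Nelfe, Polr2k and Rprd1b, no gene of the set or of these lists was both called as fallen and at least 1.5-fold lower.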

How the data were processed

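The tools named per the submitters' processing notes are Trimmomatic, HISAT2 and DESeq2, with the mm10 build. The sources used here do not give the read counter, annotation, peak caller or any pooling of replicates. The authors deposited 1 DESeq2 table: the mean normalized count over libraries (a signal), log2 fold change with SE, Wald score, p-value and adjusted p-value, the last for 12807 of 16279 genes. The deposited peak list gives fold enrichment (a ratio), a log2 change and log10 scores of p-values and false discovery rates, with a p-value column not used here.

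The tables hold no values per library, and no model was refitted. Calls use the authors' adjusted p under 0.05. Intervals (95%), percents of control and group means were computed from the fold change, SE and mean. The members and lists were chosen with earlier results of these data known. Named genes were the 9 members, Emg1, up to 3 per list with the smallest adjusted p under 0.05, and 3 on each side of Nelfe in fold change. Also named were measured genes within 1000 bases of a member and unmeasured genes inside Larp7. Older symbols and positions came from RefSeq (GRCm38.p6). Adjustment code was tested on simulated data. Software was matplotlib 3.10.9, scipy 1.17.1, pandas 2.3.3 and numpy 2.4.6 under Python 3.11.15.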

Additional observations from a re-analysis of the deposited data

How the results depend on the processing

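The fall of Nelfe was called under all 7 alternatives to the calling rule. Each alternative reuses the deposited fold change that was known when the set was chosen, so this outcome adds no support. Ccnt1 was lost at an adjusted p under 0.01, at 1.5-fold and at 2-fold, where 1 gene of the 9 remained called; its adjusted p was 0.0468 after subtraction of 0.0077, the median fold change at means of 100 or more, and 0.0488 with adjustment over all genes. The elongation lists had 26 to 34 called genes under the other thresholds and filters, but 4 at 1.5-fold, 2 risen and 2 fallen. With the median of those lists (0.13) set to 0, Nelfe stood at -1.89 and the rest at -0.12 (Nelfa), -0.19 (Nelfb), 0.014 (Nelfcd), -0.26 (Cdk9), 0.11 (Ccnt1), -0.017 (Ccnt2), -0.29 (Hexim1) and -0.22 (Larp7), so that Nelfa and Ccnt2, which were not called, changed sign. The median over the 9 genes without Nelfe was -0.028. The 2 genes with a differential peak kept that count under a stricter false discovery rate, an enrichment of at least 2 and overlap with the gene span. No paired analysis was possible because the tables hold no values per library, and leaving out replicates was not run for the same reason. Depth is unknown, so small changes in the 7 genes not called are limited by their SE.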
